A study of Mus musculus with 6 samples.

Results

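Interleukin-1 (IL-1) signalling was described through 10 genes, taken from the 55357 genes of a whole-tumour expression table by matching their symbols. They are the ligand genes Il1a and Il1b, the antagonist gene Il1rn, the receptor genes Il1r1 and Il1rap, the adaptor gene Myd88, and the IRAK kinase genes Irak4, Irak1, Irak2 and Irak3. Each symbol occurred on 1 row, and all 10 genes were among the 15023 tested. The genes were chosen by name, but as a set selected on the measured TPM of Irak2, whose difference between the groups was already known, so the values of Irak2 are a description and carry no test. The tumours were 3 from mice given folinic acid (FA, a reduced folate) and 3 from mice given phosphate-buffered saline (PBS). In both groups cells of KPC1242, a pancreatic ductal adenocarcinoma line of the mouse, had been injected under the skin of C57BL/6J mice, 250000 cells per mouse. FA mice received 2 mg by gavage each day from day 8 to day 12, PBS mice received PBS on the same days, and tumours were collected on day 14. The age and sex of the mice are not given in the labels, which also do not state that every tumour had its own mouse. P-values therefore set the difference between the groups against the spread among these 6 tumours within their groups.

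IL-1 is a family of inflammatory cytokines. IL-1 alpha and IL-1 beta bind the receptor encoded by Il1r1, which then recruits the accessory chain encoded by Il1rap, while the antagonist encoded by Il1rn occupies the receptor without signalling. The engaged receptor assembles MyD88 with the kinases IRAK4, IRAK1 and IRAK2, and the signal passes through TRAF6 and TAK1 to NF-kappaB. IRAK-M, the product of Irak3, restrains this relay, mainly in macrophages. In pancreatic tumours IL-1 is known as a signal from macrophages and tumour cells that turns fibroblasts inflammatory.

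Values are in TPM, a transcript abundance corrected for length and brought to 1 common sum per tumour, so levels can be set against each other between genes. The reads behind a value are unknown. A mean is followed by the SD over the 3 tumours of its group, and a log2 difference by its standard error. FA replicate 3 stood apart from the rest: across the tested genes, which are not independent replicates, its correlation with the other tumours was 0.949 to 0.968, against 0.981 to 0.987 among the other 5. Keratin and other ductal tumour markers were abundant in every tumour, with a summed level of 5823 to 6123 TPM in FA tumours and 5223 to 6160 TPM in PBS tumours. Descriptions of all FA tumours share 1 prefix and those of all PBS tumours another, so whatever the prefix marks cannot be told apart from treatment.

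All 10 genes were detected in every tumour, and 2 kinase genes were the most abundant by mean. Irak1 had the highest mean over the 6 tumours, 76.5 TPM, followed by Irak2 at 40.0 TPM. Their ranges, 68.11 to 86.10 and 35.46 to 46.80 TPM, were apart. The antagonist gene Il1rn came next with a mean of 31.7 TPM, then Il1r1 at 28.8 TPM and Myd88 at 25.7 TPM, and the ranges of these neighbours overlapped, as did those of Irak2 and Il1rn. Irak4, at 15.3 TPM, lay below Myd88 in all 6 tumours with ranges apart. The ligand gene Il1b averaged 11.9 TPM, Irak3 6.23 TPM, Il1a 5.65 TPM and Il1rap 3.31 TPM, with each range overlapping the next. The accessory receptor chain was thus the lowest of the 10, and Il1r1 exceeded it by 8.33, 8.62 and 8.41 times in FA tumours and by 8.04, 11.1 and 8.61 times in PBS tumours.

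**Figure D1:**
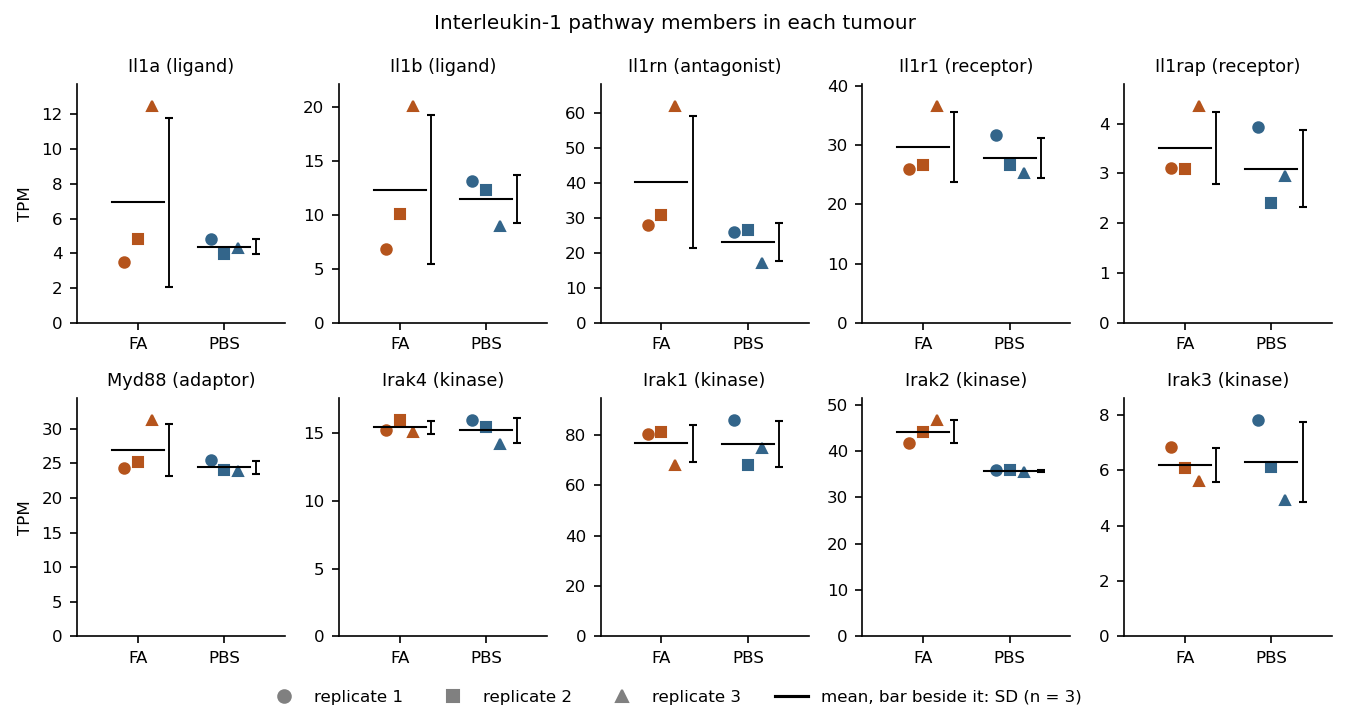
TPM of each gene in the FA (left) and PBS (right) tumours, 1 point per tumour, with the mean as a line and the SD of 3 tumours as a bar beside it; each panel has its own axis from 0. The 3 FA points lie above the 3 PBS points for Irak2 and Il1rn, and the triangle of FA replicate 3 is the highest point in 7 of the 10 panels.

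The ligand genes did not separate the groups. Il1a was at 3.51, 4.81 and 12.47 TPM in FA tumours, against 4.84, 3.99 and 4.29 TPM in PBS tumours. FA replicate 3 alone was high, and the other FA tumours lay among or below the PBS tumours. The log2 difference, FA minus PBS on log2(TPM + 1), was 0.40 ± 0.39, with a 95% interval from -0.53 to 1.32. Without FA replicate 3 it was -0.067. Il1b was at 6.90, 10.06 and 20.11 TPM in FA tumours, against 13.17, 12.33 and 8.97 TPM in PBS tumours. FA tumours held both the lowest and the highest value of this gene, on either side of the whole PBS range. Its difference was -0.010 ± 0.35, with an interval from -0.86 to 0.84, and -0.40 without FA replicate 3. Neither ligand gene passed (adjusted p = 1 for each, limma).

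Il1rn, the antagonist gene, measured 28.00, 30.72 and 61.93 TPM in FA tumours, against 25.92, 26.48 and 16.98 TPM in PBS tumours. Every FA tumour was above every PBS tumour, with 1.52 TPM between the nearest pair, and FA replicate 3 stood far above the rest. The FA tumours averaged 40.2 ± 18.9 TPM and the PBS tumours 23.1 ± 5.33 TPM. The log2 difference was 0.71 ± 0.32, with an interval from -0.060 to 1.47, and did not pass (unadjusted p = 0.0655, adjusted p = 1, limma). It was 0.36 without FA replicate 3. Only 1.38% of tested genes had a larger absolute difference, with the spread of Il1rn above that of 92.6% of them.

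Set against the ligands in the same tumour, Il1rn was higher in all FA tumours. Its TPM over the summed TPM of Il1a and Il1b was 2.69, 2.07 and 1.90 in FA tumours, against 1.44, 1.62 and 1.28 in PBS tumours. The groups do not overlap in this ratio, and FA replicate 3 had the lowest of the FA ratios, and both ligand genes were high in that tumour too. The mean ratio was 2.22 ± 0.416 in FA and 1.45 ± 0.171 in PBS tumours. This ratio was chosen after its values were seen and was not tested.

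The promoters of the ligand and antagonist genes are shown because these genes were highest in the same tumour, FA replicate 3, and all lie on chromosome 2. Il1r1, Il1rap, Myd88 and Irak2 were highest in that tumour too, and Il1rn lies far from the ligand genes on the chromosome. The sequences are those of RefSeq on GRCm38.p6, from 250 bases before to 50 bases after an annotated start, 5′ to 3′ on the strand of the gene. All 10 genes had at least 1 such window, 15 in all. Il1a is on the minus strand at chr2:129309923-129310222 and Il1b on the minus strand at chr2:129371090-129371389. Il1rn, on the plus strand, has 3 windows, of which the most upstream, chr2:24336610-24336909, and the most downstream, chr2:24345121-24345420, are given. Capitals mark matches on either strand to the AP-1 motif TGANTCA or to the TATA motif TATAAA.
Il1a: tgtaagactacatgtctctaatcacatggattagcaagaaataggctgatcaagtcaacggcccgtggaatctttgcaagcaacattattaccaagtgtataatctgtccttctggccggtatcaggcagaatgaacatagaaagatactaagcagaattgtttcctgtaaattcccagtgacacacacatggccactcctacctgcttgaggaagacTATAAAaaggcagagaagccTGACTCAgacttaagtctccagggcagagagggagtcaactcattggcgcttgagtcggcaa
Il1b: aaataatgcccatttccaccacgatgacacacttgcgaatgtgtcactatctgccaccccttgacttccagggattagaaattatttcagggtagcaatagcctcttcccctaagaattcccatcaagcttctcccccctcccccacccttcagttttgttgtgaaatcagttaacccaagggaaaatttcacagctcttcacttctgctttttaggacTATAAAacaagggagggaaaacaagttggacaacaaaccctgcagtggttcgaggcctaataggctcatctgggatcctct
Il1rn upstream start: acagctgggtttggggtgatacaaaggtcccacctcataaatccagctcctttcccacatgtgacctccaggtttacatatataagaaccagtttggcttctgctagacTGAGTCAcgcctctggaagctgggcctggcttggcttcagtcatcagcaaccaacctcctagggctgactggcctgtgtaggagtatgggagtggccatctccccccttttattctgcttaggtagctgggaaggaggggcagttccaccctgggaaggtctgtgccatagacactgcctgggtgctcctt
Il1rn downstream start: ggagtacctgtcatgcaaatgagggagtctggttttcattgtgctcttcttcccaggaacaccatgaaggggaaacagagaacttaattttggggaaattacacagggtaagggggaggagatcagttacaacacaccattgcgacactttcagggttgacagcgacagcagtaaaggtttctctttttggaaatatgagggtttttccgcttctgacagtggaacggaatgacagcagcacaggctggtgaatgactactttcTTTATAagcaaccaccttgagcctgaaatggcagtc
Il1a and Il1b each held a TATA match, beginning 32 and 31 bases before the start. A TATA match occurred in 13.6% of the 32851 RefSeq windows of this length. Il1a also held an AP-1 match 12 bases before its start, and the upstream Il1rn window held one 141 bases before, while 7.81% of all windows hold this motif. The downstream Il1rn window held TATAAA on the opposite strand, 15 bases after the start. The NF-kappaB consensus, found in 8.46% of all windows, was in none of these 4, nor in the window of Irak2. It matched windows of Irak1 and Il1r1. A match is no evidence of binding, no match says only that these letters are not in the window, and gene-level TPM does not tell which Il1rn start was used.

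The receptor genes differed by less than the spread between tumours. Il1r1, which encodes the signalling receptor, was at 25.91, 26.65 and 36.60 TPM in FA tumours, against 31.69, 26.72 and 25.31 TPM in PBS tumours. FA replicate 3 was again the highest and the groups overlapped. The difference was 0.077 ± 0.16, with an interval from -0.29 to 0.45, and -0.077 without FA replicate 3. Il1rap, the accessory chain, was at 3.11, 3.09 and 4.35 TPM in FA tumours, against 3.94, 2.41 and 2.94 TPM in PBS tumours. Its values overlapped too, with a difference of 0.15 ± 0.19 and an interval from -0.32 to 0.61. Myd88, the adaptor gene, measured 24.28, 25.21 and 31.32 TPM in FA tumours, against 25.56, 24.00 and 23.85 TPM in PBS tumours. Apart from FA replicate 3, its values lay between 23.85 and 25.56 TPM. The difference was 0.13 ± 0.11, with an interval from -0.14 to 0.39, and 0.016 without FA replicate 3. None of the 3 genes passed (adjusted p = 1 for each, limma).

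Irak2, a kinase of the complex that sustains the signal towards TRAF6, was higher in all FA tumours. It was at 41.79, 44.04 and 46.80 TPM in FA tumours, against 35.88, 35.85 and 35.46 TPM in PBS tumours. The groups were 5.91 TPM apart at their nearest values, and the PBS tumours were almost equal. The means, 44.2 ± 2.51 TPM over the FA and 35.7 ± 0.234 TPM over the PBS tumours, give a ratio of 1.24, and the log2 difference was 0.30. Leaving out any 1 tumour gave differences from 0.26 to 0.34, and FA replicate 3 was the highest by a smaller margin than for the antagonist. The set was selected on these values, so the ranks and ranges given here for Irak2 only describe them. The difference was moderate in size, larger than that of 91.0% of tested genes, while the spread was small. Only 0.659% of tested genes had a smaller SD of log2(TPM + 1) within the PBS tumours than the 0.0092 of Irak2, and within the FA tumours its SD was 0.080, against a median of 0.18 over all tested genes. The window at its start, on the plus strand at chr6:113638217-113638516 of GRCm38.p6 (RefSeq), is shown for this gene because it separated the groups, and holds none of the 3 motifs searched.
Irak2: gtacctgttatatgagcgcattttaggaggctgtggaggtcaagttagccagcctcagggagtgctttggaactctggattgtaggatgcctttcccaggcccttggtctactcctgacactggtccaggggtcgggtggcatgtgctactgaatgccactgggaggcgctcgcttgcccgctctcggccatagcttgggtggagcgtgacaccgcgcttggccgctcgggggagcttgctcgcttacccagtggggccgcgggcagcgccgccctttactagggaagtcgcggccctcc

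The other kinases of the family showed no such separation. Irak4, which starts the kinase cascade, was at 15.24, 15.98 and 15.07 TPM in FA tumours, against 15.94, 15.46 and 14.19 TPM in PBS tumours. It was the steadiest of the 10 across tumours, with a highest value 1.13 times the lowest, and differed by 0.022 ± 0.088 (interval from -0.19 to 0.23). Irak1, its substrate, was at 80.51, 81.31 and 68.16 TPM in FA tumours, against 86.10, 68.11 and 75.01 TPM in PBS tumours. FA replicate 3 was here near the lowest value, and the difference was 0.0067 ± 0.11 (interval from -0.26 to 0.28). Irak3, which encodes the restraining IRAK-M, was at 6.83, 6.09 and 5.62 TPM in FA tumours, against 7.82, 6.11 and 4.93 TPM in PBS tumours. The PBS tumours enclosed the FA tumours, with a difference of -0.0057 ± 0.17 (interval from -0.41 to 0.40). None of these 3 genes passed (adjusted p = 1 for each, limma).

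Among the 4 kinase genes, the share of Irak2 was larger in FA tumours. It made up 28.9%, 29.9% and 34.5% of the summed IRAK TPM in FA tumours, against 24.6%, 28.6% and 27.4% in PBS tumours. The groups do not overlap, but the nearest values, 28.9% in FA and 28.6% in PBS tumours, are close. Irak1 made up 50.2% to 55.8% in FA tumours and 54.3% to 59.1% in PBS tumours, and the summed level of the family averaged 142 ± 6.11 TPM over the FA and 134 ± 10.7 TPM over the PBS tumours. The shares were chosen after their values were seen and were not tested. That of Irak2 rests on the values by which the set was selected, so it is no separate observation.

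**Figure D2:**
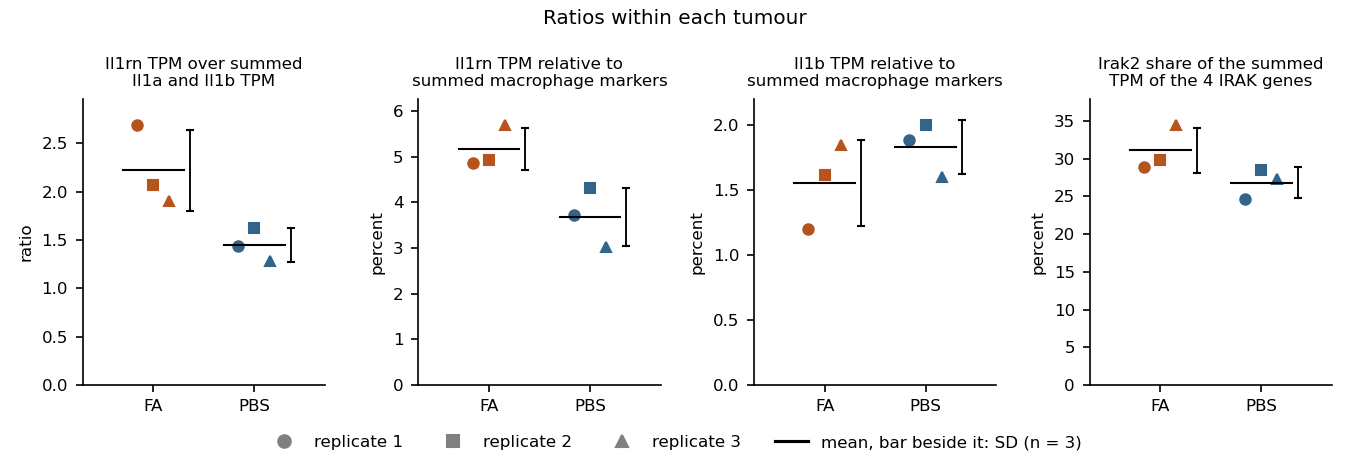
Ratios within each FA (left) and PBS (right) tumour, 1 point per tumour, with the mean as a line and the SD of 3 tumours as a bar. The ratios were chosen after their values were seen, and the Irak2 share rests on the values that selected the set. Il1rn relative to the summed ductal markers, where the groups overlapped, is not drawn. Il1rn over the summed ligand genes, Il1rn relative to the summed macrophage markers, and the Irak2 share of IRAK TPM are apart between the groups, while Il1b relative to the macrophage markers overlaps, at 1.20% to 1.85% in FA and 1.60% to 2.00% in PBS tumours.

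Across all tested genes, limma called 0 of 15023 at an adjusted p under 0.05 (0.00%) and 192 at an unadjusted p under 0.05 (1.28%). Of the 9 members other than Irak2, 0 passed the adjusted threshold and 0 had an unadjusted p under 0.05. FA values lay wholly above PBS values for 2 of the 10 members, Irak2 and Il1rn, and wholly below for 0. Groups that do not overlap were found for 4.69% of tested genes, 2.48% in the higher and 2.22% in the lower direction. As Irak2 helped to choose the set, nothing is read from that count. The median difference of the 9 members other than Irak2 was 0.077, against 0.0016 over all tested genes. Without FA replicate 3 the middle one of the 9 differences was 0.018, that of Il1rap, against a median of 0.013 over all tested genes.

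**Figure D3:**
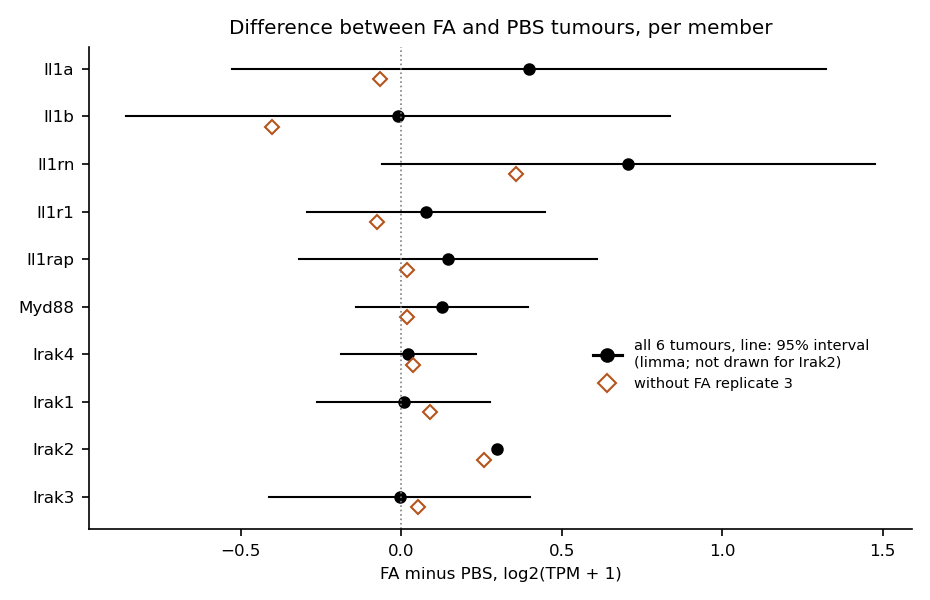
Difference between FA and PBS tumours on log2(TPM + 1) for each gene, with all 6 tumours (filled, line for the 95% interval from limma, not drawn for Irak2, which carries no test) and without FA replicate 3 (open diamonds). The intervals of the 9 other genes include 0, and without FA replicate 3 the points of Il1a and Il1r1 fall below 0.

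The 10 genes fell into steady and variable ones. The ligand and antagonist genes varied most, with a highest value 3.55 times the lowest for Il1a, 2.91 times for Il1b and 3.65 times for Il1rn. Within the FA tumours the SD of log2(TPM + 1) was 0.83 for Il1a, larger than in 96.6% of tested genes, 0.72 for Il1b and 0.61 for Il1rn. Within the PBS tumours it was 0.11, 0.27 and 0.35. Of the 10 genes, 7 had their highest value in FA replicate 3. This tumour held the highest value of 29.4% and the lowest value of 37.5% of all tested genes. The exceptions were Irak4, highest in FA replicate 2, and Irak1 and Irak3, highest in PBS replicate 1. PBS replicate 3 held the lowest value of 6 of the 10, and the lowest value of 15.7% of all tested genes.

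Markers of several cell types were highest in FA replicate 3 as well. The 12 macrophage and monocyte markers, led by C1qa and C1qb, summed to 575, 623 and 1087 TPM in FA tumours, against 697, 615 and 559.9 TPM in PBS tumours, and 10 of the 11 tested were highest in FA replicate 3. None of the 12 was at 0 in any tumour. The 10 neutrophil markers, led by Ltf and S100a9, summed to 21.9 to 48.7 TPM in the FA and 23.2 to 26.4 TPM in the PBS tumours. Ly6g, Camp and Ngp were at 0 in some. Of the 4 tested, 3 were highest in FA replicate 3, but Ltf in FA replicate 2. The 11 T and natural killer cell markers, led by Trbc2 and Trac, were not highest in FA replicate 3. They summed to 14.4 TPM there and to 11.2 to 15.6 TPM in the other tumours, with Cd3d, Cd8a and Ncr1 at 0 in some. The 10 fibroblast markers, led by Col3a1 and Col1a1, summed to 2098 to 6995 TPM in the FA and 2001 to 3784 TPM in the PBS tumours, and the 10 endothelial markers, led by Egfl7 and Pecam1, to 103 to 364 TPM in the FA and 108 to 169 TPM in the PBS tumours. All 10 of each were highest in FA replicate 3. Skeletal muscle markers, 10 genes led by Acta1 and Ckm, reached 1296 TPM in that tumour and ran from 12.8 to 188 TPM in the other 5. The 10 ductal tumour markers, led by Krt18 and Krt8, were divided. In FA replicate 3, 4 of them were highest, Krt8 but not Krt18 among these, while others were lowest in it. Their sum was highest in PBS replicate 2, at 6160 TPM, against 6123 TPM in FA replicate 3. In whole tumours, fewer cells of a type and less RNA per cell cannot be told apart, and the part of these cells in the IL-1 values was not tested.

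Relative to the summed macrophage markers, Il1rn stood at 4.87%, 4.93% and 5.70% in FA tumours, against 3.72%, 4.31% and 3.03% in PBS tumours. The FA tumours were above the PBS tumours in this ratio too, with FA replicate 3 less far from the others than in TPM. Il1b gave 1.20%, 1.62% and 1.85% in FA tumours, against 1.89%, 2.00% and 1.60% in PBS tumours, and overlapped. Relative to the summed ductal markers, Il1rn stood at 0.481%, 0.508% and 1.01% in FA tumours, against 0.496%, 0.43% and 0.312% in PBS tumours, so that the groups overlapped. These ratios were chosen after their values were seen.

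**Figure D4:**
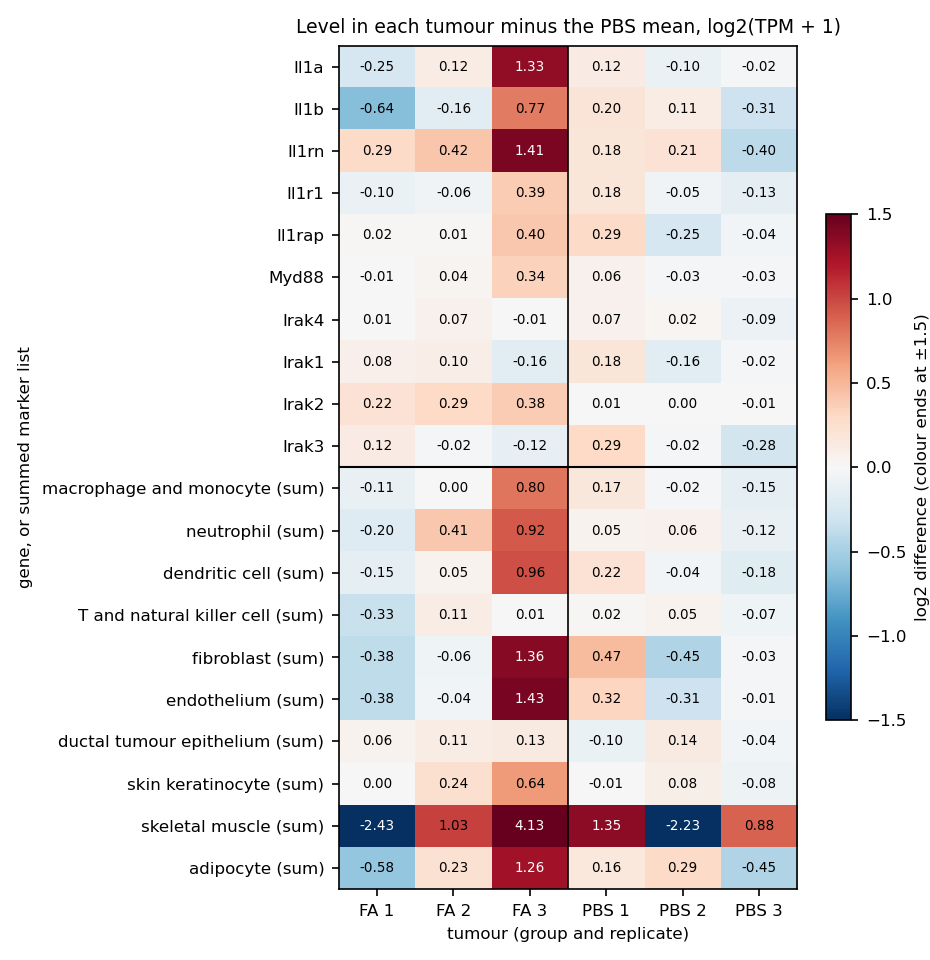
Level of each gene (upper block) and of each summed marker list (lower block) in every tumour minus the PBS mean, on log2(TPM + 1), printed in each cell, with red above and blue below the PBS mean. FA replicate 3 shows 1.33 for Il1a, 0.77 for Il1b and 1.41 for Il1rn beside 0.80 for macrophages, 1.36 for fibroblasts and 4.13 for skeletal muscle, while Irak2 is above the PBS mean in all 3 FA tumours, by 0.22, 0.29 and 0.38.

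The rest of the pathway was described through 8 lists of 118 genes, of which 99 could be tested. Of these, 0 passed at an adjusted p under 0.05 in either direction (limma), against 0.00% of all genes, and 2 had an unadjusted p under 0.05, which is 2.02% against 1.28% of all tested genes. The log2 difference was above 0 for 68 and below 0 for 31, with a median of 0.064, against 0.0016 over all tested genes. The share of genes highest in FA replicate 3 ran from 5 of 16 in the relay list to 5 of 6 in the receptor list. That tumour held the highest value of 29.4% of all tested genes, and its part in the split was not tested. FA and PBS values were apart for 4 of the 99, or 4.04%, against 4.69% of all tested genes. The named genes of each list are those with the smallest unadjusted p.

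Other ligands and receptors of the family overlapped between the groups. Il33, an alarmin of epithelial and stromal cells, was by far the most abundant ligand gene, at 270.64, 192.46 and 288.28 TPM in FA tumours, against 274.92, 256.15 and 228.29 TPM in PBS tumours. Il18, an inflammasome-dependent cytokine, averaged 14.6 ± 3.72 TPM over FA and 15.8 ± 2.17 TPM over PBS tumours, and Il18bp, its secreted inhibitor, 2.99 ± 1.19 TPM over FA and 2.81 ± 0.571 TPM over PBS tumours. The skin-type genes Il36b, Il36rn and Il1f10 were listed at 0 in every tumour. In the receptor list, 6 of 8 genes were tested, all 6 with a log2 difference above 0 and a median of 0.22. Il1r2, the decoy that binds IL-1 without signalling, was at 8.32, 6.37 and 12.70 TPM in FA tumours, against 8.46, 4.53 and 4.68 TPM in PBS tumours. Only PBS replicate 1 reached the FA range, and the difference was 0.55 ± 0.30 (interval from -0.15 to 1.26). Il1rl2, the IL-36 receptor chain, differed by 0.35 ± 0.34 and Il18rap, a chain of the IL-18 receptor, by 0.20 ± 0.24, and 5 of the 6 genes were highest in FA replicate 3.

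The genes that release IL-1 and those of the Toll-like receptors, which share MyD88 and the IRAK kinases, showed no difference past the threshold. Of 15 inflammasome and processing genes, 11 were tested, 10 with a log2 difference above 0, and the median was 0.090. Casp1, the protease that matures IL-1 beta, was at 3.63, 4.65 and 9.66 TPM in FA tumours, against 5.12, 3.36 and 3.66 TPM in PBS tumours. Nlrp3, its sensor, averaged 1.51 ± 0.563 TPM over FA and 1.08 ± 0.255 TPM over PBS tumours, and Mefv, which encodes pyrin, 1.30 ± 0.607 TPM over FA and 0.893 ± 0.0902 TPM over PBS tumours. FA replicate 3 was the highest for each of these 3. Of 18 Toll-like receptor genes, 14 were tested, 12 with a log2 difference above 0, and the median was 0.093. Cd14, the lipopolysaccharide co-receptor, was at 125.77, 109.93 and 74.90 TPM in FA tumours, against 107.14, 137.60 and 116.66 TPM in PBS tumours, and so was lowest in FA replicate 3. The adaptor gene Tirap differed by 0.14 ± 0.10 and Cd180, a relative of these receptors, by 0.32 ± 0.21.

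Downstream of the receptor, 16 genes of the relay to TAK1 were tested, 5 with a log2 difference above 0 and 11 below, and none passed. Their differences ran from -0.34 to 0.48 with a median of -0.045. This list held 3 of the 4 pathway genes whose groups were apart, 2 higher and 1 lower in FA tumours. That is 3 of its 16 tested genes, while 4.69% of all tested genes had groups apart. Whether the list differs from all genes in this was not tested. Peli2, a ubiquitin ligase of the Pellino family that acts on IRAK proteins, was at 2.84, 4.63 and 3.72 TPM in FA tumours, against 2.41, 2.25 and 2.40 TPM in PBS tumours. All FA tumours were above all PBS tumours, with a difference of 0.48 ± 0.17 (unadjusted p = 0.0283, adjusted p = 1, limma). Its paralogue Peli1, named here after its values were seen, was at 11.35, 12.99 and 11.17 TPM in FA tumours, against 11.14, 10.56 and 10.67 TPM in PBS tumours, apart by 0.03 TPM. Irak1bp1, which encodes a binding partner of IRAK1, was at 2.11, 2.38 and 1.97 TPM in FA tumours, against 3.65, 2.47 and 2.93 TPM in PBS tumours. Here all FA tumours were below all PBS tumours, with 0.09 TPM between the nearest pair. The difference was -0.34 ± 0.16 (unadjusted p = 0.073, adjusted p = 1, limma). Tab1, a subunit of the TAK1 complex, differed by -0.14 ± 0.10.

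Of the NF-kappaB subunit genes, all 13 were tested, 7 with a log2 difference above 0 and 6 below, and the median was 0.043. Bcl3, a nuclear IkappaB protein, averaged 66.9 ± 2.54 TPM over FA and 61.6 ± 3.74 TPM over PBS tumours. The IkappaB genes Nfkbie and Nfkbib averaged 9.17 ± 2.22 and 17.1 ± 2.41 TPM over FA tumours, against 7.42 ± 1.07 and 15.5 ± 0.733 TPM over PBS tumours. Each overlapped between the groups. Of the 11 feedback inhibitors, 6 had a log2 difference above 0 and 5 below 0, with a median of 0.028. Otulin, a linear-ubiquitin protease, differed by -0.13 ± 0.083, Zc3h12a, an RNase that degrades cytokine transcripts, by 0.16 ± 0.14, and the pseudokinase gene Trib3 by -0.20 ± 0.18.

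Among 28 genes known to be induced by IL-1, 25 were tested. The log2 difference was above 0 for 21 and below 0 for 4, with a median of 0.16. Ccl20, a chemokine for cells bearing CCR6, was at 9.84, 8.80 and 7.60 TPM in FA tumours, against 6.45, 7.48 and 6.25 TPM in PBS tumours. The FA tumours were all above the PBS tumours, and FA replicate 3 was the lowest of them, with a difference of 0.33 ± 0.13 (unadjusted p = 0.0408, adjusted p = 1, limma). Csf2, which encodes GM-CSF, was at 1.81, 2.97 and 9.41 TPM in FA tumours, against 2.02, 1.84 and 2.78 TPM in PBS tumours, high in FA replicate 3 alone. Lcn2, the iron-binding lipocalin, was at 156.17, 59.09 and 11.27 TPM in FA tumours, against 73.75, 135.79 and 92.81 TPM in PBS tumours. The FA tumours spanned far more than the PBS tumours, with FA replicate 3 the lowest of all 6. FA replicate 3 held the highest value of 19 of the 25 genes, the marker sums of stromal and myeloid cells being highest in it too, and their part in these values was not tested.

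**Figure D5:**
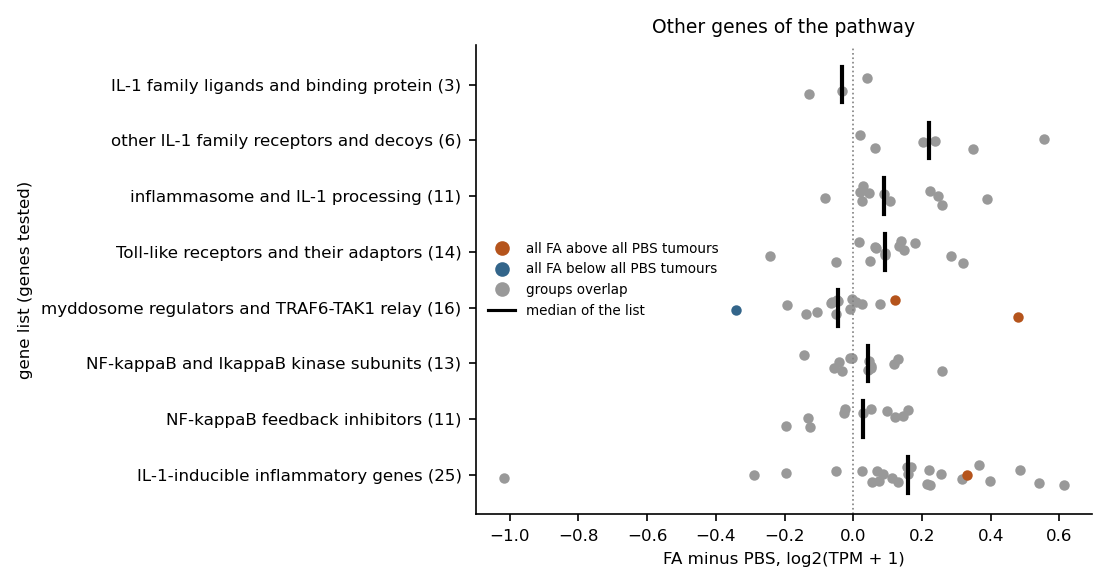
Difference between FA and PBS tumours on log2(TPM + 1) for the 99 tested genes of 8 pathway lists, 1 point per gene, with the list median as a black bar. Coloured points are the 4 genes whose groups are apart, 3 higher and 1 lower in FA, and the point at the far left is Lcn2 at -1.02.

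The genes whose profile over the 6 tumours was most like that of Irak2 were sought among 10688 named genes of at least 5 TPM, by the root mean square difference of log2(TPM + 1) scaled to mean 0 and SD 1. They were Tmem168, Pon3 and Plekhg2, at 0.162, 0.194 and 0.197 SD units. Pon3, a paraoxonase gene, measured 14.40, 17.35 and 18.96 TPM in FA tumours, against 12.51, 12.50 and 12.14 TPM in PBS tumours, with the same tight PBS values. For Il1b they were Qrsl1, Ttc7 and Btg2, at 0.076, 0.122 and 0.137 SD units. Btg2, an antiproliferative gene, measured 14.52, 18.05 and 23.08 TPM in FA tumours, against 19.39, 18.99 and 16.99 TPM in PBS tumours, and so shared with Il1b a low FA replicate 1 and a high FA replicate 3. These likenesses are a description over 6 tumours, and the shared features, such as tight PBS values, follow from the search itself.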

How the data were processed

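RNA of 6 subcutaneous tumours was sequenced, 1 stranded total RNA library per tumour, per the labels' protocols. The authors deposited 1 table of TPM for 55357 Ensembl genes. FastQC, STAR, RSEM and featureCounts are listed in the submitters' processing notes, with neither version nor role. Build and annotation: not given in the sources used here. Columns were matched to tumours by their descriptions. TPM keeps no depth, so no counting interval is given.

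Values were analysed as log2(TPM + 1), which understates the change of low genes, on 15023 genes averaging 1 TPM or more, in R 4.3.3 with limma 3.58.1 (empirical Bayes with a variance trend, no covariate). Tests were two-sided, with Benjamini-Hochberg adjustment over all tested genes and a threshold of 0.05, and the fit was tested on simulated data. The members and lists were chosen with earlier results of these data known. Named genes are the members, up to 3 genes per pathway list by the smallest unadjusted p, the 3 profiles most like Irak2 and Il1b, and the 2 highest genes of each marker list described. Marker genes at 0 are named besides. Alternatives covered the pseudocount, the filter, rescaling, the variance trend, a block for the replicate number, array weights and each tumour left out in turn. Promoter motifs were searched on both strands in RefSeq windows with Python 3.11.15.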

Additional observations from a re-analysis of the deposited data

How the results depend on the processing

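In FA tumours, 0 genes were called higher and 0 lower (limma), and 2 alternatives changed this. With no filter on low values, Gm24045 and Gm22728, 2 genes, were called higher. Leave-one-out fits called 0 to 1 genes lower, Snord14d when FA replicate 3 was absent. Of the 9 tested members and of the pathway genes, 0 were called under each of the 15 alternatives. Il1rap is under 5 TPM and has no value with that filter.

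Of 149 recomputed member differences, 17 changed sign. None of the tested members was called under any setting, so these changes could not fall on a called member. With array weights, which gave FA replicate 3 a weight of 0.217 and stopped before full convergence, Il1r1 turned to -0.022 and Irak3 to 0.069. Leaving out 1 tumour gave ranges of -0.067 to 0.72 for Il1a, -0.40 to 0.31 for Il1b, -0.077 to 0.17 for Il1r1, -0.024 to 0.055 for Irak4, -0.072 to 0.095 for Irak1 and -0.14 to 0.14 for Irak3. The cause was not tested. When tumours were left out, Il1rn stayed between 0.36 and 0.92 and Irak2 between 0.26 and 0.34. Under the other alternatives the ranges were 0.53 to 0.73 for Il1rn and 0.27 to 0.30 for Irak2. The set was selected on the values of Irak2, so the ranges of Irak2 are a description. The median difference of all tested genes stayed within 0.02 of 0.

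The labels do not say whether same-numbered tumours were paired. For replicates 1 and 2 the descriptions also share an ending between the groups, and what it marks is not given. Deviations of same-numbered tumours correlated at -0.21, 0.05 and -0.02 across genes, and no tumour correlated best with its own number. Deviations within a group sum to 0, so these correlations cannot decide whether tumours were paired. With the replicate block 0 genes were called, and 178 had an unadjusted p under 0.05. Depth is unknown in TPM, and its limits cannot be given.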
